A study of Mus musculus with 2 samples.

Results

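The genes described here are those of the ATF4 response and the cytosolic aminoacyl-tRNA synthetases in mouse CD4+ T cells on the first day of induced Treg cell (iTreg) differentiation. They were chosen by symbol from lists of ATF4 pathway genes, serine and one-carbon enzymes and cytosolic synthetases, and all 40 symbols were found among the 23238 distinct symbols (23282 rows) of the table. Naïve CD4+ T cells came from spleens of wild-type (WT) female C57BL/6 mice aged 7 to 10 weeks. The cells were stimulated with plate-bound anti-CD3ε (5 μg/ml) and soluble anti-CD28 (2 μg/ml) and kept for 1 day with TGF-β1 (5 ng/ml), IL-2 (1 ng/ml) and blocking antibodies to IFN-γ (10 μg/ml) and IL-4 (10 μg/ml). The control culture received DMSO and the treated culture 10 μM Tubastatin A (TSA), an inhibitor of HDAC6, the cytoplasmic deacetylase of tubulin. Each condition gave 1 culture and 1 library, so that no difference given here has a replicate check and no p-value is given. Whether cells of several mice were pooled is not given in the sources used here.

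ATF4 is a transcription factor of the integrated stress response. Under amino acid shortage, unfolded protein or mitochondrial stress, kinases phosphorylate the initiation factor eIF2, most translation slows, and the Atf4 transcript, which carries short upstream reading frames, is translated more. ATF4 then pairs with C/EBP proteins and other partners on composite elements and induces genes for amino acid import, amino acid and serine synthesis, one-carbon metabolism and tRNA charging. In activated T cells the same programme serves growth, because dividing cells need serine-derived one-carbon units for nucleotides and charged tRNAs for protein synthesis. ATF4 activity itself is set largely by translation, which RNA counts do not measure.

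These were QuantSeq libraries, in which a read comes from the 3′ end of a polyadenylated RNA, and held 10845868 (control) and 10432287 (TSA) reads on genes, of which 8.72% and 9.63% were of Rn45s, the precursor of ribosomal RNA. The deposited value of a gene is log2 of a normalized count plus 1. A log2 fold change is the TSA value minus the control value, a value written as N-fold is that difference turned into TSA over control, and each range in parentheses is an exact Clopper-Pearson 95% interval of the ratio of reads, which compares these 2 libraries and covers counting error only. For summed reads of a list, the ratio is of shares of the library total, which is total-read scaling and not the deposited one. A gene was tested when either library held 10 or more of its reads, which left 12164, and 39 of the 40 members passed. Pycr1, an enzyme of proline synthesis, did not pass, with 1 control read and 2 TSA reads. T cell markers took 0.197% of the reads in the control and 0.225% with TSA, with 2434 and 2549 reads of Cd4. Of the CD8 T cell markers, Cd8a had 15 and 10 reads and Cd8b1 65 and 77. B cell markers held 15 and 15 reads, with Pax5 at 0 in both libraries. Myeloid cell markers held 68 and 53 reads, of which Cd68 had 32 and 19, while S100a9 was at 0 in both. Dendritic cell markers held 11 and 50 reads, of which Flt3 had 0 and 33, while Clec9a and Siglech were at 0 in both libraries. NK cell markers held 33 and 48 reads and erythroid markers 46 and 71. The part of these cells in the results was not tested.

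To show where the letters of an ATF4 element occur at these genes, the RefSeq promoter windows of GRCm38.p6, 250 bases before to 50 after each start, were searched for TGATGNAA, the core of the composite element that ATF4 and C/EBP proteins share, on both strands. Windows were found for 32 members (34 windows) and not for Vars, Wars, Hars, Rars, Mars, Cars, Lars and Nars, and 10 of these genes held a match (31.2% of genes). Counted by window, 3.97% of all 32851 windows held one. Of the matches that lie before the start, 6 are printed in the direction of the gene, with the motif in capitals and 9 bases on either side. The capitals hold TGATGNAA as such or its reverse complement.

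Nupr1: agggccagaTTGCATCAgacagggct
Chac1: tccctgccgTTGCATCActcctgcca
Asns: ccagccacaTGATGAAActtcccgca
Gars: gctgcgctaTTTCATCAtgcaccggg
Tars: ggagtcccgTTGCATCAgctggttag
Pycr1: ccctgtgtaTGATGCAAtgcacaagg

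These windows lie at chr7:126625564-126625589 (minus strand) for Nupr1, chr2:119351040-119351065 (plus) for Chac1, chr6:7693216-7693241 (minus) for Asns, chr6:55037962-55037987 (plus) for Gars, chr15:11399657-11399682 (minus) for Tars and chr11:120643835-120643860 (minus) for Pycr1. The motif began 110 bases before the start in Nupr1, 193 in Chac1, 23 in Asns, 30 in Gars, 15 in Tars and 103 in Pycr1. Trib3, Yars and Iars held their match just after the start. The E-box CACGTG, which Myc binds and which reads the same on both strands, was found in windows of 6 members (Aldh18a1, Farsb, Iars, Nupr1 and Tars among them), 18.8% of the genes with a window, while 7.15% of all windows, counted by window, held it. A match is a run of letters and not a measured site, and the window differs between genes with several starts.

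Most of these genes had lower levels in the TSA library, by small amounts. Of the 39 members tested, 26 were lower and 3 higher by more than counting error (the interval left out no change), and for 10 the interval held no change. Among all genes tested these rules called 28.0% lower and 28.1% higher, and under total-read scaling 21.6% lower and 33.7% higher. The median log2 fold change of the members was -0.28, against 0.015 over all genes tested, and 32 of the 39 (82.1%) were lower at any size, against 48.6% of all genes. Genes with many reads were lower more often: among 3962 genes whose normalized counts averaged 500 or more, 48.5% were lower and 20.8% higher by more than counting error and the median was -0.11. Of the 29 members above that level, 22 were lower and 2 higher, with a median of -0.27, and 25 were lower at any size, against 65.6% of these genes. Past 2-fold, the limit the study uses, 3 members were lower (Nupr1, Sesn2 and Atf5, the last not under total-read scaling) and 0 higher, against 3.15% of all genes lower and 11.5% higher. Nupr1 and Sesn2 passed the read filter only through the control library, where they were high, and when each library had to hold 10 reads, or the average had to reach 50 normalized counts, 1 member (Atf5) was left. With 1 library per condition there was no replicated test, and the depth and culture of each library cannot be told apart from the treatment. In bulk RNA, fewer cells of a type and less RNA per cell also cannot be told apart.

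**Figure D1:**
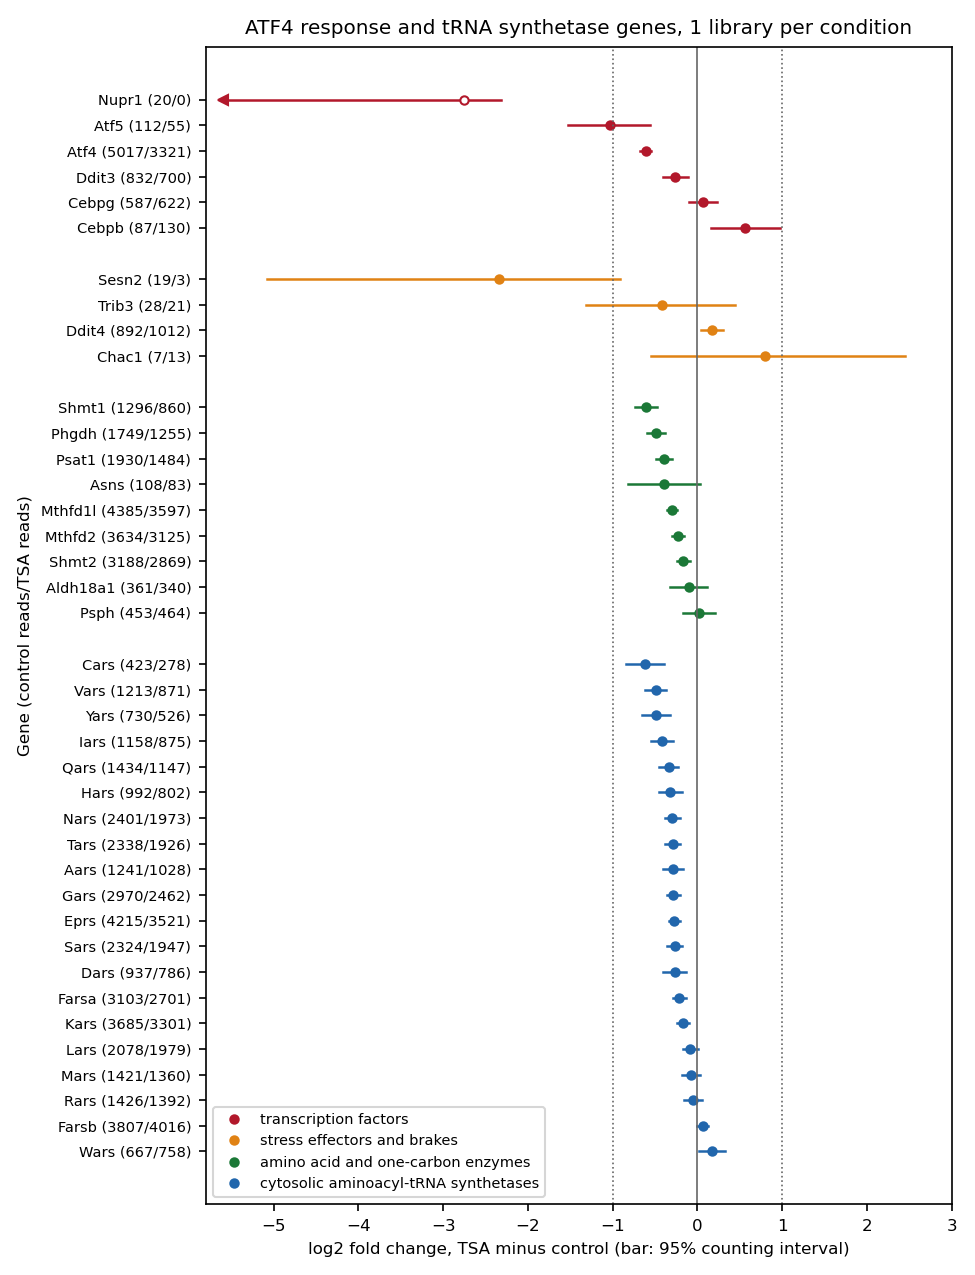
Log2 fold change (TSA minus control) of the 39 members tested, by role, with bars for the 95% counting interval and the reads of each library beside the symbol; dotted lines mark 2-fold. Nupr1, at 0 reads in the TSA library, is drawn as an open point at its bound for 3 reads, with an interval open to the left. Most points lie left of 0, with Nupr1, Sesn2 and Atf5 past the dotted line and Cebpb, Ddit4 and Wars to the right by more than counting error; Lars, Mars and Rars change sides under total-read scaling without Rn45s.

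Among the transcription factors, Atf4 itself was lower in the TSA library. Atf4 (chr15:80255184-80257541, plus strand, GENCODE M21 on GRCm38) had 5017 control reads and 3321 TSA reads, or 0.656-fold (0.627 to 0.685). Its log2 fold change was -0.61 as deposited and -0.54 with total-read scaling. Atf4 was 1 of 6 members lower past 1.5-fold, against 8.34% of all genes tested, and 1 member (Chac1) was higher past 1.5-fold, against 18.7%. Nupr1 and Sesn2 among the 6, and Chac1, passed the read filter only through the library in which they were higher, so nothing is read from these counts. Atf5, a relative of ATF4 that is under the same translational control and acts in the mitochondrial stress response, had 112 and 55 reads, or 0.491-fold (0.346 to 0.677). Atf5 lies at chr7:44812256-44816658 on the minus strand. Both ATF genes were lower beyond counting error, and Atf5 was just past 2-fold as deposited (log2 -1.03) but not with total-read scaling (-0.96), total reads without Rn45s (-0.94), upper-quartile scaling (-0.98) or a pseudocount of 5 (-0.98).

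Nupr1 encodes a small chromatin protein induced by stress and had 20 control reads and 0 TSA reads. Set against the floor of 3 reads for the TSA library, with the 20 control reads taken as they are, it was at least 6.73-fold lower. With the counting error of both libraries, the upper end of its interval was 0.201, which is a smaller difference. No TSA read was found in a library of this depth, whose floor of 3 reads is a CPM of 0.288 (counts scaled to the library total). Ddit3, which encodes CHOP, the factor linked to cell death in prolonged stress, had 832 and 700 reads, or 0.833-fold (0.752 to 0.922). The last 500 bases of the longest Mars transcript share 67 bases with Ddit3 on the opposite strand, and whether the counting used strand is not given in the sources used here, so reads of these neighbours may be mixed.

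The C/EBP partners of ATF4 were not lower by more than counting error. Cebpb, the C/EBP factor that also serves inflammatory gene expression, had 87 control reads and 130 TSA reads, or 1.47-fold (1.12 to 1.96). Cebpg, the usual dimer partner of ATF4, had 587 and 622 reads, or 1.05-fold (0.936 to 1.18), an interval that held no change and overlapped that of Cebpb. Of the 6 factors, 4 were lower and 1 higher by more than counting error and 1 was within it, against 28.0% lower and 28.1% higher among all genes tested, with Nupr1 among the 4 only through its control reads. Their reads together made up 0.0614% of the control library and 0.0463% of the TSA library, a ratio of 0.754 (0.727 to 0.783), most of which was Atf4.

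**Figure D2:**
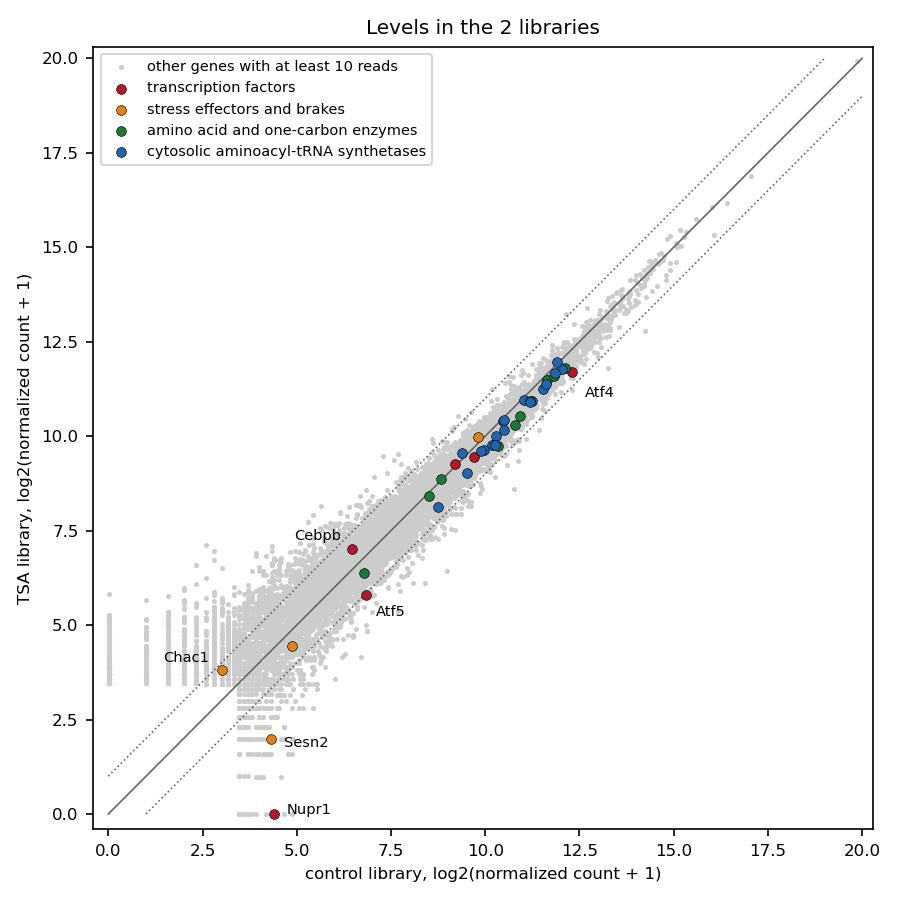
Level of every gene tested in the control library (x axis) and the TSA library (y axis), both as log2(normalized count + 1), with the members coloured by role; the solid line marks equal levels and the dotted lines 2-fold. Most members lie just under the line at the well-read end, while Nupr1, Sesn2, Atf5 and Chac1 lie among genes with few reads, where the spread of all genes is widest.

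The stress effectors and brakes, which ATF4 and CHOP induce to slow growth signals or shut the response down, rested on few reads except for Ddit4. Sesn2, a leucine sensor and inhibitor of mTORC1 (chr4:132492032-132510501, minus strand), had 19 control reads and 3 TSA reads, which is 0.198-fold (interval of the read ratio 0.0296 to 0.531). Ddit4, which encodes REDD1, another inhibitor of mTORC1, had 892 and 1012 reads, or 1.12-fold (1.03 to 1.23). Sesn2 passed the read filter only through the control library and its TSA count lies at the floor of 3 reads, so its direction is not set against that of Ddit4. Trib3, a pseudokinase that binds ATF4 and CHOP, had 28 and 21 reads, or 0.751-fold (0.401 to 1.36). Chac1, an enzyme that degrades glutathione and a sensitive target of ATF4, had 7 and 13 reads, or 1.73-fold (0.682 to 5.44). For Trib3 and Chac1 a difference was not detectable at this depth.

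Longer promoter sequence is shown for Nupr1 and Sesn2, the 2 members with the lowest fold changes, a rank that rests on genes which passed the read filter only through the control library. The 250 bases before the RefSeq start of Nupr1 (chr7:126625471-126625720, minus strand) hold TTGCATCA, in capitals, while those of Sesn2 (chr4:132510457-132510706, minus strand) hold no TGATGNAA in either direction.

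Nupr1: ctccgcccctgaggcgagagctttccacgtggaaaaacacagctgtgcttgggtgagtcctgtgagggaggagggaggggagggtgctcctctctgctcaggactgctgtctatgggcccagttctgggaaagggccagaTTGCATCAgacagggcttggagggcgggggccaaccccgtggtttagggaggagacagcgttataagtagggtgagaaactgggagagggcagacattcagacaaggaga
Sesn2: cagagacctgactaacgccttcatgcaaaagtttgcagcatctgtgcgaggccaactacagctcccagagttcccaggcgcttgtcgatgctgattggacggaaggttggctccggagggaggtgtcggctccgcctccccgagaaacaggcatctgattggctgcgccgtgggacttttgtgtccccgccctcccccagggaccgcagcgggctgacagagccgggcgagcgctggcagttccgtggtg

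Among members tested, 8 of the 9 with a match in their window were lower at any size, with a median difference (log2) of -0.39, and 17 of the 22 with a window and no match, with a median of -0.27, while 48.6% of all genes tested and 65.6% of those averaging 500 or more normalized counts were lower. These values describe the lists and nothing was tested on them.

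Of 9 enzymes of serine synthesis, one-carbon metabolism and amino acid synthesis tested, 6 were lower and 0 higher by more than counting error, with a median difference (log2) of -0.30. The same rule called 28.0% of all genes lower, and 48.5% of those averaging 500 or more normalized counts, a level that 6 of the 9 reached. Phgdh, which takes the first step from glycolysis to serine, had 1749 control reads and 1255 TSA reads, or 0.711-fold (0.660 to 0.764). Psat1, the aminotransferase of the next step, had 1930 and 1484 reads, or 0.762-fold (0.711 to 0.815). Psph, the phosphatase that finishes serine, had 453 and 464 reads, or 1.01-fold (0.889 to 1.16). The first steps of the pathway were therefore lower while the last was within counting error, and the interval of Psph did not overlap those of Phgdh and Psat1. For Phgdh, 7 annotated genes carry copies of its transcript end at 95% identity or more, so that the counting could split its reads.

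Of the folate enzymes, Shmt1, the cytosolic serine hydroxymethyltransferase, had the larger difference, with 1296 and 860 reads, or 0.657-fold (0.602 to 0.717). Shmt2, its mitochondrial counterpart, had 3188 and 2869 reads, or 0.891-fold (0.847 to 0.938). The intervals of the cytosolic and the mitochondrial enzyme did not overlap. The ends of Shmt1 and Smcr8 share 184 bases on opposite strands, and Smcr8 had 380 and 353 reads. Mthfd2, the mitochondrial dehydrogenase that is high in proliferating cells, had 3634 and 3125 reads, or 0.851-fold (0.811 to 0.893). Mthfd1l, which releases formate from mitochondria, had 4385 and 3597 reads, or 0.812-fold (0.777 to 0.849). All 4 folate members were lower by more than counting error, with 12503 control reads and 10451 TSA reads together, and all average over 500 normalized counts, where 48.5% of all genes were lower.

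The remaining enzymes did not differ by more than counting error. Asns, asparagine synthetase and a much used readout of ATF4, had 108 and 83 reads, or 0.763-fold (0.565 to 1.02). Aldh18a1, which makes the precursor of proline, had 361 and 340 reads, or 0.933-fold (0.802 to 1.08). The reads of all enzymes of this list made up 0.158% of the control library and 0.135% of the TSA library, a ratio of 0.856 (0.837 to 0.875).

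Aminoacyl-tRNA synthetases join each amino acid to its tRNA, and many of those in the cytosol are induced by ATF4 while others are kept at a steady level. Of the 20 cytosolic members, 15 were lower and 1 higher by more than counting error and 4 were within it, with a median difference (log2) of -0.28 and a range of -0.62 to 0.17. All but 1 of the 20 averaged 500 or more normalized counts, where 48.5% of all genes were lower and 20.8% higher. Their reads together went from 38563 to 33649, or from 0.356% to 0.323% of the library, a ratio of 0.907 (0.894 to 0.921). With the deposited scaling, which the fold changes of single genes use, the ratio was 0.864. No synthetase was past 2-fold, and 1 (Cars) was lower past 1.5-fold, against 8.34% of all genes tested.

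The largest difference was that of Cars, the cysteine enzyme (chr7:143557230-143600090, minus strand), with 423 control reads and 278 TSA reads, or 0.652-fold (0.557 to 0.759). Vars, the valine enzyme, followed with 1213 and 871 reads, or 0.711-fold (0.651 to 0.776). Yars, the tyrosine enzyme, had 730 and 526 reads, or 0.714-fold (0.637 to 0.799). The intervals of these 3 overlapped one another and that of Iars, the isoleucine enzyme (1158 and 875 reads, fold change 0.748, 0.685 to 0.818), so they have no order beyond counting error.

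A broad middle group had nearly the same fold change. Qars (glutamine), Hars (histidine), Nars (asparagine), Tars (threonine), Aars (alanine), Gars (glycine), Eprs (glutamate and proline), Sars (serine) and Dars (aspartate) lay between 0.792 and 0.8305, and each interval overlapped those of the others. In reads, the best covered of them, Eprs, had 4215 (control) and 3521 (TSA), and Gars, which also serves mitochondria, had 2970 and 2462. For Aars the annotated transcript end is shared over 500 bases with Exosc6 on the same strand (1616 and 1266 reads), so that its 1241 and 1028 reads are uncertain. Farsa, a subunit of the phenylalanine enzyme, had 3103 and 2701 reads, or 0.862-fold (0.818 to 0.908), and Kars, the lysine enzyme of both cytosol and mitochondria, 3685 and 3301 reads, or 0.887-fold (0.846 to 0.930).

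The other synthetases were higher or within counting error. Wars, the tryptophan enzyme, which interferon-γ induces, had 667 control reads and 758 TSA reads, or 1.13-fold (1.01 to 1.25). Farsb, the partner subunit of Farsa, had 3807 and 4016 reads, or 1.04-fold (0.999 to 1.09). Its interval held no change as deposited and lay above it with total-read or upper-quartile scaling. The intervals of the subunits of this enzyme did not overlap. The end of Farsb shares 248 bases with Sgpp2 on the opposite strand (20 and 15 reads). Lars (leucine), Mars (methionine) and Rars (arginine) had fold changes of 0.943, 0.947 and 0.967 with intervals that held no change. These intervals overlapped that of Dars in the middle group and not those of Qars, Nars, Tars, Gars and Eprs. The direction of Lars, Mars and Rars turned under total-read scaling without Rn45s, that of Rars also with Rn45s kept. Lars had 2078 and 1979 reads, Mars 1421 and 1360, and Rars 1426 and 1392.

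Lars, Mars and Rars belong to the multisynthetase complex, in which 8 of these genes are assembled on scaffold proteins. The 8 genes had a median difference (log2) of -0.22, with 5 lower by more than counting error, and the 12 outside it a median of -0.29, with 10 lower and 1 higher. Among all genes averaging 500 or more normalized counts 48.5% were lower. This split was made after the values were seen and was not tested.

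**Figure D3:**
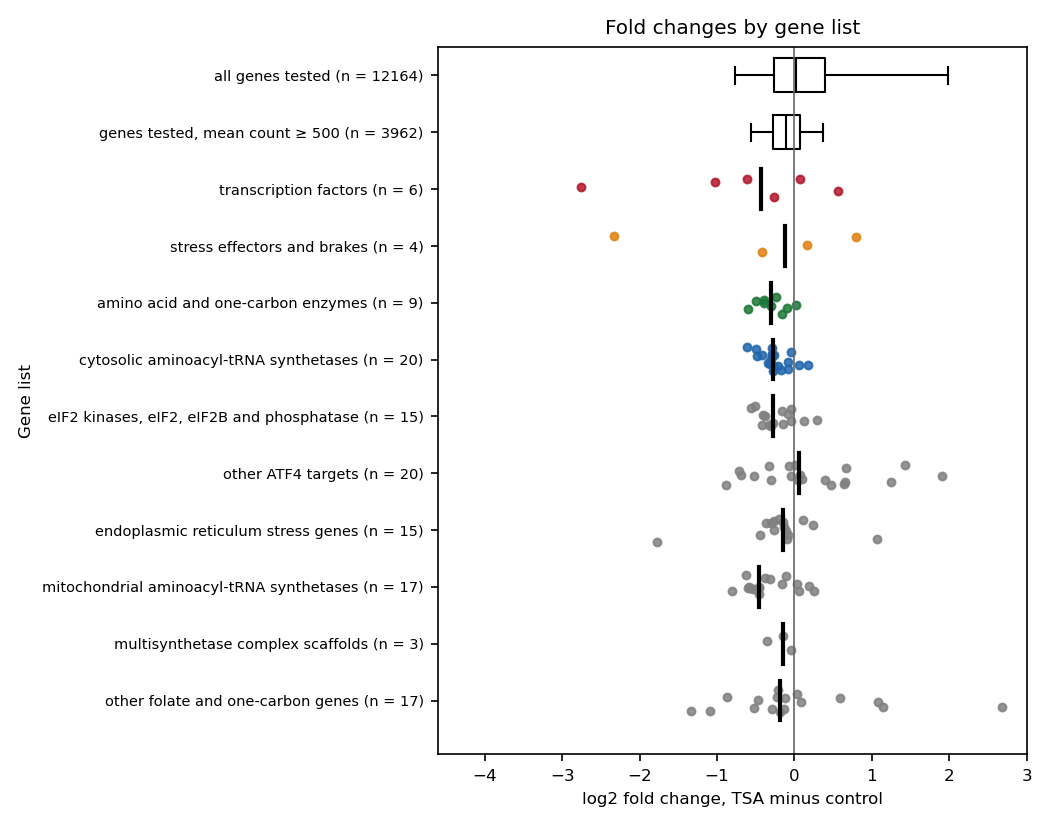
Log2 fold change (TSA minus control) of the tested genes of each list, 1 point per gene, with a black bar at the list's median; the boxes give the quartiles and the 5th to 95th percentile of all genes tested and of those whose normalized counts averaged 500 or more. The synthetases, the enzymes and the eIF2 genes centre near -0.28 to -0.30, the mitochondrial synthetases near -0.45 and the other ATF4 targets near 0.058; Nupr1 is drawn at its bound for 3 reads.

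The genes around this pathway were examined with lists of other members of it. The mitochondrial synthetases, which charge the tRNAs of the mitochondrial genome, went the same way: 10 of 17 were lower and 0 higher by more than counting error, with a median difference (log2) of -0.45, against 28.0% of all genes lower. Yars2 had 564 control reads and 375 TSA reads, or 0.659-fold (0.576 to 0.752), while Hars2 had 212 and 255 reads with an interval that held no change (0.989 to 1.44). Of the 3 scaffolds of the multisynthetase complex, 2 were lower by more than counting error (all 3 lie at the level where 48.5% of all genes were lower), with a fold change of 0.785 for Eef1e1 (793 and 628 reads), and Aimp2 (1422 and 1399 reads) was within it.

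Upstream, 8 of 15 genes for the eIF2 kinases, eIF2, its exchange factor eIF2B and the phosphatase regulators were lower and 0 higher by more than counting error, with a median difference (log2) of -0.28. All 8 averaged 500 or more normalized counts, a level that 10 of the 15 reached. Among all genes tested 28.0% were lower, and 48.5% of those at that level. Eif2b5, the catalytic subunit of the exchange factor, had 947 and 648 reads, or 0.678-fold (0.612 to 0.750). Eif2ak3, the kinase PERK of the endoplasmic reticulum, had 135 and 167 reads with an interval of 0.970 to 1.55. Of 15 genes of endoplasmic reticulum stress, 9 were lower and 2 higher by more than counting error (12 and 3 at any size), with a median of -0.14, and 11 of the 15 lay at the level where 48.5% of all genes were lower. Past 2-fold were Atf6, a sensor of unfolded protein, with 112 and 237 reads, or 2.09-fold (1.67 to 2.65), and Ern1, the sensor IRE1, with 16 and 4 reads, or 0.291-fold (0.0602 to 0.767). Thus 1 of the 15 was higher and 1 lower, against 11.5% and 3.15% of all genes, and Ern1 passed the read filter only through the control library. Edem1, which hands misfolded glycoproteins to degradation, had 762 and 565 reads, or 0.735-fold (0.657 to 0.820).

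The other known targets of ATF4 had no common direction. Of 20 tested, 7 were higher and 4 lower by more than counting error, with a median difference (log2) of 0.058, against 28.1% higher and 28.0% lower among all genes tested. The 4 lower genes, 3 of them named after their values were seen, were Bcat1, Slc7a5, Slc3a2 and Slc7a1. Bcat1, the cytosolic branched-chain aminotransferase, had 1127 and 615 reads, or 0.541-fold (0.489 to 0.597). Slc7a5 and Slc3a2, the 2 chains of the large neutral amino acid transporter, had 1047 and 644 reads (fold change 0.609) and 2917 and 2046 reads (0.694), and Slc7a1, the arginine importer, 2074 and 1666 reads (0.796). Past 2-fold, 3 of the 20 were higher and 0 lower, against 11.5% and 3.15% of all genes, and all 3 had few reads: Cbs, of transsulfuration, with 13 and 52 reads, or 3.75-fold (2.13 to 7.93), Gpt2, an alanine aminotransferase, with 14 and 35, and Slc7a3, an arginine transporter, with 6 and 18, which passed the read filter only through the TSA library. Atf3, a stress-induced repressor of the same family, had 104 and 166 reads, or 1.58-fold (1.23 to 2.04). The remaining higher genes, also named after their values were seen, were Sqstm1, Slc38a2 and Slc6a9. Sqstm1 had 1046 and 1468 reads, or 1.39-fold (1.28 to 1.51), and Slc38a2 2941 and 3168, or 1.07-fold (1.01 to 1.12). Slc6a9 had 49 and 78 reads, or 1.56-fold (1.09 to 2.30).

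Of 17 tested genes in a list of other folate and one-carbon genes, 8 were lower and 4 higher by more than counting error, with a median difference (log2) of -0.19. Among all genes tested 28.0% were lower and 28.1% higher, and 48.5% and 20.8% of those averaging 500 or more normalized counts. That level was reached by 9 of the 17, and all 4 higher genes averaged less. Tyms, which uses the one-carbon unit to make thymidylate, had 1086 and 598 reads, or 0.546-fold (0.493 to 0.603). Past 2-fold, 2 of the 17 were lower and 3 higher, against 3.15% and 11.5% of all genes. Aldh1l2, the mitochondrial formyl-folate dehydrogenase, had 19 and 7 reads and Mthfd2l 18 and 8, and the interval of Mthfd2l held no change (0.166 to 1.06). Both passed the read filter only through the control library. Higher past 2-fold were Ggh, which trims folate polyglutamates in lysosomes, with 68 and 153 reads, or 2.21-fold (1.66 to 3.01), Slc46a1, a proton-coupled folate transporter, with 37 and 80 reads, and Gldc, of the glycine cleavage system, with 1 and 12 reads (interval 1.76 to 508), which passed the filter only through the TSA library.

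**Figure D4:**
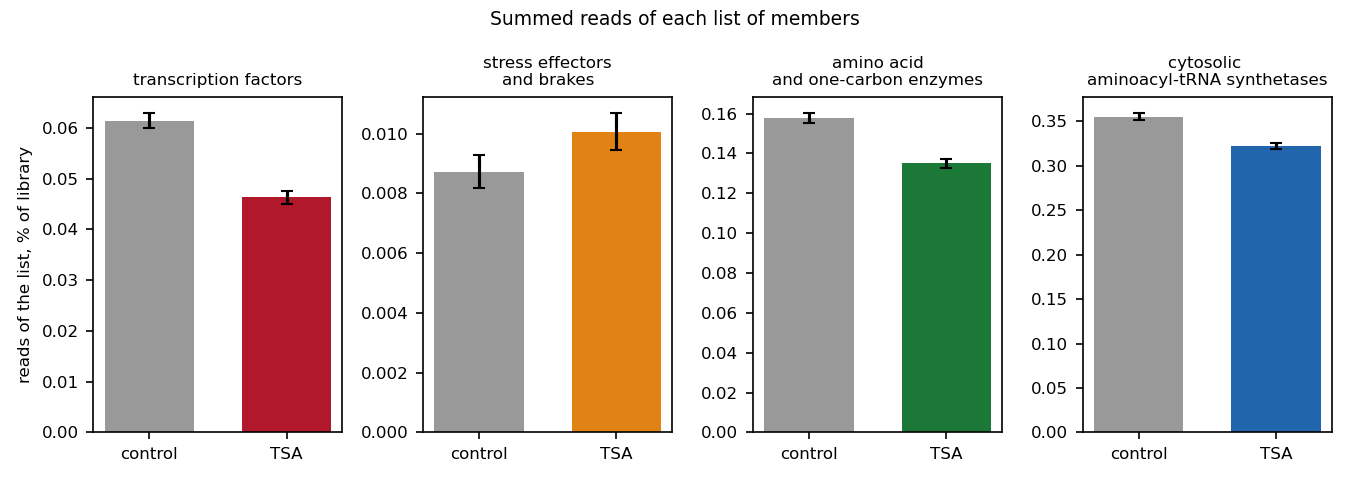
Summed reads of the genes of each list of members as a percentage of all reads of the library, in the control (grey) and TSA (coloured) libraries, with exact 95% binomial intervals for counting error; each panel has its own axis from 0. The transcription factors, the enzymes and the synthetases took a smaller share in the TSA library, by ratios of 0.754, 0.856 and 0.907, and the stress effectors a larger one, by 1.15, which was mostly Ddit4.

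All 40 members together made up 0.583% of the control reads (63269 reads) and 0.514% of the TSA reads (53605 reads), a ratio of 0.881 (0.871 to 0.891). The ratio differed between the lists by more than counting error, from 0.754 for the transcription factors to 1.15 (1.05 to 1.26) for the stress effectors. With the deposited scaling the ratio was 0.839 for all members and 0.718 for the transcription factors. It was 0.815 for the enzymes, 0.864 for the synthetases and 1.10 for the stress effectors.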

How the data were processed

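Total RNA of 1 control and 1 TSA culture was sequenced by the authors as QuantSeq libraries (single-end 75-nt reads, NextSeq 500) and analysed with ExDEGA. The submitters' processing notes name Bowtie2, bedtools and mm10. The normalization is not given in the sources used here. The deposited values are log2 of a normalized count plus 1, which was read from the values: 1 read was worth 1.005 (control) or 0.995 (TSA) normalized counts, and 99.7% and 99.8% of values of 1 to 300 reads lay within 0.1 of a whole number. Values are rounded to 0.001, so that reads of the best covered member are known to within about 1.75. Another 1940 control values, all of 0.001 to 0.016 and thus under 1 read, were set to 0.

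Groups were taken from the treatment labels. Fold changes are differences of deposited values, with a pseudocount of 1. Intervals are exact Clopper-Pearson intervals on reads, the floor is 3 reads (CPM 0.277 for the control, 0.288 for TSA), and both cover counting error only. With 1 library per condition no test was run. The members and lists were chosen with earlier results of these data known. Every member is accounted for. From the other lists, genes past 2-fold and the highest and lowest averaging 100 or more normalized counts are named, and others are marked. Positions and transcript ends are from GENCODE M21 (GRCm38), and promoters from RefSeq (GRCm38.p6). Some promoter sequence is not reported here. Ends were compared with blastn at 95% identity over at least 75 bases. The steps were tested on simulated data. Python 3.11.15, numpy 2.4.6, scipy 1.17.1 and pandas 2.3.3 were used. Scaling, pseudocount, low-count filter and threshold were varied, and a minimum mean of 500 was added after the data were seen.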

Additional observations from a re-analysis of the deposited data

How the results depend on the processing

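No paired analysis was possible because each condition had 1 library, so leaving out replicates was not possible either. Scaling by total reads with or without Rn45s, by the median of ratios and by the upper quartile, and pseudocounts of 0.1 and 5, kept the direction of the medians of all members and of each of the 4 lists of members, and kept 26 members lower by more than counting error under each scaling. The largest shift that a scaling gave to the median of all genes tested was 0.084 on the log2 scale (total reads without Rn45s), which left 29 in place of 32 members lower at any size. The number of members past 2-fold depended on the scaling, pseudocount, filter and threshold. In place of 3 lower members there were 2 (without Atf5) with total reads, with or without Rn45s, with upper-quartile scaling and with a pseudocount of 5. There was 1 with at least 10 reads in both libraries, 1 where normalized counts averaged 50 or more, 0 with a mean of at least 500, 1 when the whole interval had to lie beyond 2-fold, and 6 at 1.5-fold, where 1 in place of 0 was higher. The minimum read filters leave out Nupr1 and Sesn2. For the same reason the median log2 fold change of the transcription factors was -0.26 in place of -0.44 with at least 10 reads in both libraries and -0.26 with a mean of at least 50, and that of the stress effectors turned from -0.12 to 0.17 with a mean of at least 50, which left Ddit4 alone. Differences in members under about 20 reads, such as Chac1, are limited by depth.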
